A study of Mus musculus with 24 samples.

Results

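Skeletal muscle repairs itself from satellite cells, the stem cells that lie along the fibre and are marked by the transcription factor *Pax7*. Activated satellite cells switch on the myogenic regulatory factors *Myf5* and *Myod1*, then *Myog* and *Myf6*, and fuse through the membrane protein *Mymk* (myomaker). When a fibre loses its nerve, genes that are normally held down or kept at the junction come on along the fibre, among them *Chrna1* and *Chrng*, which encode subunits of the acetylcholine receptor, the adhesion molecule *Ncam1* and the transcription factor *Runx1*. These 10 genes, taken by their symbols in GENCODE M21, are described here in RNA-Seq counts of muscle and tongue, with heart and stomach beside them. All 10 were found among the 54532 gene identifiers counted in each of 24 samples.

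The mice were *Trex1*-/- (labelled Trex1-KO) in every group. They lack the DNA exonuclease TREX1 and develop inflammation in several organs through the DNA sensor cGAS and its adaptor STING. The study's methods put them on a C57BL/6J background at 1 month of age. Treated mice received SN-011, a STING antagonist, and control mice did not; the comparison asks what blocking STING did to the tissues. The sources give 2 schedules: 10 mg/kg daily for 2 weeks against a vehicle of 1% Tween 80 in PBS in the study's methods, and 5 mg/kg on 3 occasions a week over 4 weeks against untreated controls in the labels. Each of the 8 groups (muscle, tongue, heart and stomach, control or SN-011) held 3 samples, and no wild-type tissue was among them. The sources do not name which muscle was taken, nor say whether samples with the same number came from 1 mouse, so p-values measure the spread between samples.

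Total counts ran from 14253416 to 18443329 per sample, so that 3 counts, the smallest number taken as shown, stood for 0.163 to 0.210 CPM (the count relative to the library's total, the unit used below). This floor and all intervals cover counting error only. The labelled tissues carried their own markers: all 10 skeletal muscle markers were counted in muscle and tongue, and all 8 cardiomyocyte markers in heart. A few libraries stood apart. The muscle SN-011 sample 2 had counts on 11546 genes, against 19798 or more in the others. Of 3644 genes that averaged 20 to 100 counts in the muscle controls, 56.4% were at 0 in that library, against 0.0274% to 0.439% in the other 5 muscle libraries. The mean control counts of *Pax7*, *Myf5*, *Mymk* and *Ncam1* lie in this range and that of *Chrng* under it, so muscle results are given with and without that library. Control sample 1 of every tissue had 3060 to 13811 counts of the female-specific RNA *Xist* and 3 or fewer of the Y-linked *Ddx3y*, while the other samples had 20 or fewer and 825 or more. The sexes were thus mixed in every control group and not in the SN-011 groups.

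Of the 10 genes, *Chrna1* (chromosome 2, 73563215 to 73580338, GRCm38) and *Chrng* (chromosome 1, 87204657 to 87212694) encode the alpha 1 subunit and the fetal gamma subunit of the receptor, and *Myog* (chromosome 1, 134289989 to 134292548) encodes myogenin. Proteins of the MyoD family bind the E-box, written CANNTG, which reads alike on both strands. The 250 bases before the RefSeq start of these 3 genes (GRCm38.p6, gene strand, with each CANNTG in capitals) are shown because the receptor subunits and *Myog* were detected together in muscle and tongue and were at or under the floor in heart. They lie at chr2:73580339-73580588 on the minus strand, chr1:87205561-87205810 on the plus strand and chr1:134289754-134290003 on the plus strand. The RefSeq starts of *Chrng* and *Myog* lie past the GENCODE starts. The *Chrng* window is thus inside the gene span given above, and the end of the *Myog* window reaches into its span.
Chrna1: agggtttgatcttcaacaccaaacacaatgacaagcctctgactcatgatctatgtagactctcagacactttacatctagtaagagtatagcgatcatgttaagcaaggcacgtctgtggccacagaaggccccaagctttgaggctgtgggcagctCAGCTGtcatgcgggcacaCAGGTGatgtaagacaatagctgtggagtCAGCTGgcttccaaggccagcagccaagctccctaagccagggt
Chrng: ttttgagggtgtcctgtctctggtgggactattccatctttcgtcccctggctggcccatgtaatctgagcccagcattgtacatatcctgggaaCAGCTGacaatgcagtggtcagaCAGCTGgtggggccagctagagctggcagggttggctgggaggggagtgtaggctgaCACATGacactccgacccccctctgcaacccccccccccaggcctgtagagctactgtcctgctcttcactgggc
Myog: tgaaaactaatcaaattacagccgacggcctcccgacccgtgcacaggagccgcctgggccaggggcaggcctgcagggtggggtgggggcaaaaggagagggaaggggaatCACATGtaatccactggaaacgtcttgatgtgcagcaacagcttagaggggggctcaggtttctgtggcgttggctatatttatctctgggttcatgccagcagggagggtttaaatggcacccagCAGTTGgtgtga

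The *Chrna1* window held CANNTG at 92, 73 and 44 bases before the start, and the first and last of these read CAGCTG. In the *Chrng* window the matches began at 155, 132 and 75 bases before the start, the first 2 again as CAGCTG. *Myog* had matches at 138 and 12 bases and no CAGCTG. The longer pattern is a special case of CANNTG. Over 32851 RefSeq windows of the same length, 66.2% held a CANNTG and 13.0% held a CAGCTG, so a match of the first kind is the common case. *Pax7* and *Myf5* were likewise detected in muscle and tongue and had 0 counts in heart, and their windows held neither pattern. *Runx1* has 2 RefSeq starts, of which the one farther upstream had 3 CANNTG and the other 0. *Myod1*, *Myf6*, *Ncam1* and *Mymk* are named only. A match describes letters, not binding.

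The 10 genes were first compared between tissues in the control samples. To compare genes with each other, CPM scaled over all 24 samples was divided by the exonic length of each gene in kb. In control muscle the adult-fibre factor *Myf6* led at 102 ± 13.6 CPM per kb (SD, n = 3 here and below). *Myog* (7.43 ± 2.06), *Chrna1* (6.34 ± 0.453) and *Myod1* (6.08 ± 2.64) followed, and neighbours among these 3 overlapped. *Mymk* was at 1.95 ± 0.396, and *Myf5*, *Pax7*, *Runx1* and *Ncam1* lay between 0.863 and 1.12 with overlapping neighbours. The fetal subunit gene *Chrng* was lowest at 0.213 ± 0.141.

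In control tongue *Myf6* and *Myog* overlapped, at 19.0 ± 5.58 and 13.3 ± 2.85 CPM per kb. *Chrna1* was at 3.53 ± 1.13 and *Myod1* at 2.28 ± 0.426. The lowest of the 10 were *Chrng* (0.343 ± 0.325) and *Pax7* (0.306 ± 0.193), which overlapped. *Myf6* thus stood far above *Myog* in muscle but not in tongue.

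**Figure D1:**
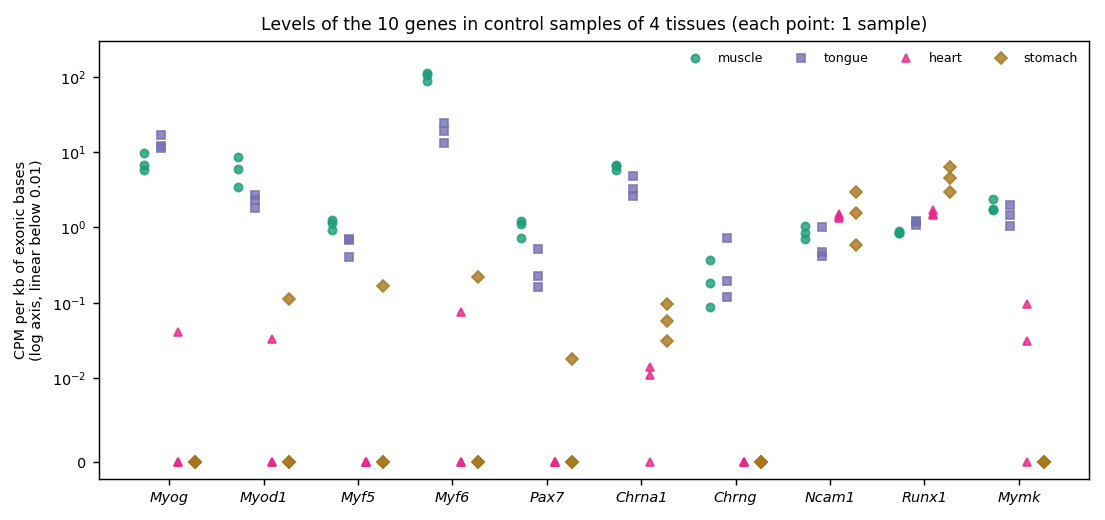
Levels of the 10 genes in the 3 control samples of muscle, tongue, heart and stomach, in CPM per kb of exonic bases on a log axis that is linear below 0.01; each point is a sample. *Myf6* is at 102 CPM per kb on average in muscle and 19.0 in tongue, whereas in heart only *Ncam1* (1.41) and *Runx1* (1.57) are well above 0.

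The heart served as striated muscle without satellite cells or motor endplates. In its 3 control libraries together, *Pax7*, *Myf5* and *Chrng* had 0 counts, *Myog* and *Myod1* had 1 count each, *Myf6* and *Chrna1* 2 each and *Mymk* 4. With the same 3-library sum in muscle, *Pax7* (207 counts) was at least 115-fold higher than in heart, *Myf5* (80 counts) at least 44.6-fold and *Chrng* (31 counts) at least 17.3-fold, taking 3 counts over the group as the floor for heart. *Myf6* had 4475 counts in muscle, a ratio to heart of 3745 with a 95% exact counting interval of 1036 to 30930. The ratio for *Chrna1* was 801 (221 to 6622). In tongue the ratios were 683 (189 to 5648) for *Myf6* and 442 (122 to 3659) for *Chrna1*, and *Pax7* was at least 35.5-fold higher.

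In a joint edgeR fit of muscle, tongue and heart, these 8 genes were higher in control muscle and in control tongue than in control heart, with a largest adjusted p of 0.00238 in muscle and 0.00260 in tongue. Of all genes tested, 39.7% and 35% passed in these comparisons in either direction. *Ncam1* went the other way in tongue, with a log2 fold change against heart of −1.18 (SE 0.33, adjusted p = 0.0104). For *Runx1* it was −0.46 (SE 0.34, adjusted p = 0.323). In muscle against heart neither passed, with log2 fold changes of −0.69 for *Ncam1* (adjusted p = 0.103) and −0.85 for *Runx1* (adjusted p = 0.0602). Both passed with DESeq2 size factors (0.0368 and 0.0160), with library size alone (0.00176 and 0.000669) and by DESeq2. The lower *Ncam1* of tongue did not pass without tongue control sample 2 or 3 (adjusted p = 0.0549 and 0.0578).

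Tongue and muscle were then set against each other. *Myf6* was lower in tongue (log2 fold change −2.47, SE 0.26, adjusted p = 3.75e-06, edgeR), and it passed in all of the alternatives run. *Myod1* (−1.45, SE 0.53, adjusted p = 0.0392) and *Chrna1* (−0.88, SE 0.29, adjusted p = 0.0236) were also lower. Neither passed with DESeq2 size factors (adjusted p = 0.0796 and 0.0751), with library size alone (−0.63 and −0.07), without a filter on low counts, or without 1 of several control samples (*Myod1* down to −1.09 without muscle control 3, *Chrna1* −0.70 without tongue control 3). With same-numbered samples of different tissues taken as a replicate block, *Myod1* did not pass (−1.37, adjusted p = 0.0708), while *Chrna1* did. Library size alone moved the median of all genes in this comparison from 0.05 to 0.87, and DESeq2 size factors moved it to 0.24. Thus 3 of the 10 passed, where 44.1% of all genes tested did. *Myog* had a log2 fold change of 0.81 (SE 0.35, adjusted p = 0.0804) and passed with DESeq2 size factors (0.99, adjusted p = 0.0251), with library size alone (1.63, adjusted p = 0.00174) and by DESeq2. *Runx1* went from 0.39 (adjusted p = 0.381) to 1.203 (adjusted p = 0.00686) with library size alone. *Ncam1* passed without the tongue control sample 1 (−1.002, adjusted p = 0.0129). *Ncam1* and *Mymk* changed sign with library size alone, from −0.49 and −0.42 to 0.36 and 0.40.

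SN-011 was compared with control within each tissue on CPM scaled within that tissue. In muscle 9 of the 10 genes had enough counts to test, and none passed an adjusted p of 0.05, where 0.0141% of all genes did (2 of 14198). At an unadjusted p under 0.05 none of the 9 passed either, nor did any by DESeq2 or edgeR's exact test after adjustment. Of the 9 log2 fold changes 7 were below 0, and their median was −0.33, beside 55.5% negative and a median of −0.08 over all genes. *Pax7* and *Mymk* were the 2 genes whose groups did not overlap, both with SN-011 lower; 19.9% of all genes tested were lower in that way and 14.5% higher.

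*Pax7*, the marker of satellite cells, was at 4.45, 2.60 and 3.87 CPM in control muscle and 1.35, 0 and 1.14 CPM in SN-011 muscle. Every SN-011 sample was below every control, and the 0 belongs to sample 2, which had no count of the gene. The log2 fold change was −2.11 (SE 1.18, adjusted p = 0.473). Without SN-011 sample 2 it was −1.54 (SE 0.32, adjusted p = 0.0452). The exact two-sided permutation p over all 6 samples was 0.1, the smallest that 3 against 3 allows. In bulk tissue, fewer cells of a type and less RNA per cell cannot be told apart.

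*Myf5*, also a satellite cell gene, was at 1.22, 1.47 and 1.56 CPM in controls and 1.29, 0 and 1.60 CPM after SN-011. Apart from the 0 in sample 2, the groups lay together (log2 fold change −0.54, SE 1.22; 0.03, SE 0.31, without sample 2). *Pax7* and *Myf5* therefore differed in their values although both mark satellite cells. Whether the 2 genes differed from each other in response was not tested.

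*Myod1*, which commits cells to the muscle lineage, was at 4.02, 6.90 and 9.66 CPM in controls and 1.42, 5.98 and 1.94 CPM in SN-011 samples. Sample 2 lay inside the control range and the other 2 SN-011 samples below it. The log2 fold change was −1.14 (SE 0.67, adjusted p = 0.494), and without sample 2 it was −2.03 (SE 0.42, adjusted p = 0.0448). *Mymk*, needed for myoblast fusion, was at 2.28, 1.58 and 1.56 CPM in controls and 0.451, 0 and 1.14 CPM after SN-011. Its log2 fold change was −1.73 (SE 1.19, adjusted p = 0.565) and −1.16 (SE 0.45, adjusted p = 0.143) without sample 2.

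*Myog*, which drives terminal differentiation and is also raised by denervation, did not follow *Myod1*. Its values were 9.10, 6.23 and 5.13 CPM in controls and 8.83, 7.19 and 12.9 CPM after SN-011 (log2 fold change 0.50, SE 0.35, adjusted p = 0.569). The groups overlapped through control sample 1. *Myf6* was at 67.5 to 89.6 CPM in controls and 74.6 to 100.1 CPM in SN-011 samples, with a log2 fold change of 0.13 (SE 0.16).

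*Chrna1* was at 15.99, 17.99 and 16.95 CPM in control muscle and 11.40, 18.01 and 12.74 CPM after SN-011. Sample 2 again matched the controls, and the other 2 were lower than all of them. The log2 fold change was −0.27 (SE 0.22, adjusted p = 0.638), and without sample 2 it was −0.49 (SE 0.12, adjusted p = 0.0552). *Chrng* had 9, 4 and 18 counts in the control libraries and 4, 0 and 3 in the SN-011 libraries, and was too low to test. *Ncam1* was at 3.79 to 5.33 CPM in controls and 3.31 to 4.20 CPM in SN-011 samples. *Runx1* was at 6.28 to 6.44 CPM in controls and 7.02, 2.26 and 5.83 CPM in SN-011 samples 1 to 3, so its mean of 5.04 rests on sample 2.

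**Figure D2:**
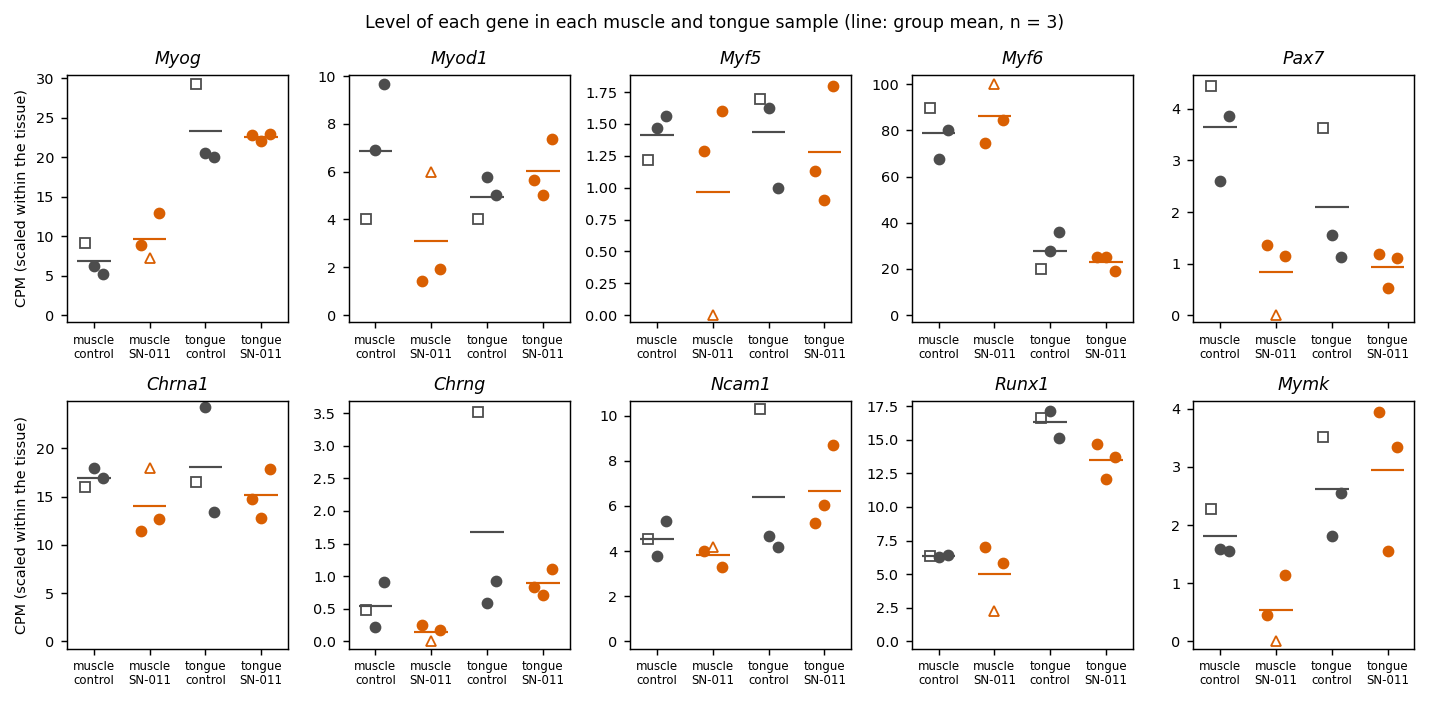
Level of each of the 10 genes in CPM, scaled within the tissue, in each control (grey) and SN-011 (orange) sample of muscle and tongue; open squares are control sample 1, the open triangle is muscle SN-011 sample 2, and lines are means of 3. In muscle *Pax7* and *Mymk* lie lower in all SN-011 samples, and sample 2 is at 0 for *Pax7*, *Myf5*, *Chrng* and *Mymk*.

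Without SN-011 sample 2, 2 of the 9 genes passed in muscle (*Myod1* and *Pax7*, both lower), and 7.4% of all genes tested passed. With control sample 1 left out as well, an alternative added after seeing the data, *Myod1* (−2.30, adjusted p = 0.00212), *Pax7* (−1.39, adjusted p = 0.0197) and *Chrna1* (−0.54, adjusted p = 0.0151) were lower and *Myog* was higher (0.93, adjusted p = 0.0190). In that fit of 2 against 2 samples 30.2% of all genes passed. Leaving out control sample 1 alone gave no call among the 9.

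Markers of other cell types were summed in the same muscle samples. The summed level of the 5 fibroblast markers was 944 to 1346 CPM in controls and 415 to 715 CPM in SN-011 samples, and all 5 had negative log2 fold changes. The sums for the 5 endothelial markers were 234 to 276 and 200 to 207 CPM. The 10 skeletal muscle markers summed to 159266 to 173305 CPM in controls and 188139 to 251365 CPM after SN-011. The 6 stomach gland markers, which belong to another tissue, summed to 30.6, 427 and 186 CPM in controls and 0 to 16.3 CPM in SN-011 samples. These 4 sums did not overlap between groups. The leukocyte (314 to 340 and 275 to 432 CPM) and Schwann cell sums (83.7 to 128 and 93.0 to 144 CPM) overlapped. Cardiomyocyte markers summed to 29.4 to 128 and 127 to 277 CPM, with *Nppb* and *Nkx2-5* at 0 in the controls. Squamous epithelium markers summed to 6.28 to 9.25 and 4.45 to 4.93 CPM, also without overlap, with *Krt5*, *Krt4* and *Dsg3* at 0 in both groups. The part of any of these in the *Pax7*, *Myod1* or *Mymk* values was not tested.

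In tongue all 10 genes were tested and none passed at an adjusted p of 0.05, where 0% of 16587 genes did, nor at an unadjusted p under 0.05; none passed by DESeq2 or edgeR's exact test. Of the 10, 7 had a negative log2 fold change (median −0.21, against 51.5% negative and a median of −0.01 for all genes). *Pax7* was at 3.63, 1.56 and 1.12 CPM in controls and 1.19, 0.516 and 1.12 CPM in SN-011 samples. The highest value was control sample 1, and the others overlapped (log2 fold change −1.15, SE 0.57, adjusted p = 0.442; −0.49, SE 0.57, without that sample). *Chrng* showed the same shape, with 3.51 CPM in control sample 1, 0.585 and 0.933 CPM in the other controls and 0.709 to 1.12 CPM after SN-011. Its log2 fold change turned from −0.92 (SE 0.70) to 0.23 (SE 0.58) without control sample 1.

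That sample was high for several of the genes at once. It held the highest *Myog* (29.2 CPM, against 20.02 to 22.95 in the other 5 tongue samples), *Ncam1* (10.3 against 4.17 to 8.68), *Pax7* and *Chrng* of the tongue. Its *Myod1* (4.02 CPM) was the lowest of the 6. Its Schwann cell sum was 422 CPM, against 208 to 312 in the others, and its fibroblast sum 946, against 402 to 581. The endothelial sum (422 against 176 to 229) and the leukocyte sum (1098 against 566 to 850) were also the highest of the 6, and the squamous epithelium sum the lowest (14564 against 18374 to 55189). Whether these contents bear on the 4 high values was not tested.

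The remaining genes of the tongue overlapped between groups except *Runx1*. *Myog* was at 23.3 ± 5.18 CPM in controls and 22.6 ± 0.475 CPM after SN-011 (log2 fold change −0.04, SE 0.18). *Myod1* was at 4.95 ± 0.883 and 6.03 ± 1.22 CPM (0.29, SE 0.27). *Mymk*, at 2.63 ± 0.849 and 2.95 ± 1.25 CPM, had a log2 fold change of 0.16 (SE 0.44). *Chrna1* (−0.25, SE 0.25), *Myf6* (−0.27, SE 0.24), *Myf5* (−0.17, SE 0.43) and *Ncam1* (0.06, SE 0.41) had groups that overlapped as well. Without control sample 1, *Myf6* was at −0.46 (SE 0.18, adjusted p = 0.142) and *Ncam1* at 0.60 (SE 0.31, adjusted p = 0.253).

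The difference between the 2 tissues was tested directly. In the joint fit no member passed for the SN-011 effect in muscle minus that in tongue, where 0.038% of 18440 genes did. The smallest p was that of *Myod1*, whose difference was −1.60 (SE 0.74, unadjusted p = 0.0498, adjusted p = 0.458), beside −1.14 in muscle and 0.29 in tongue when each was fitted alone. For *Mymk* it was −1.91 (SE 1.13, adjusted p = 0.571), and for *Myog* 0.47 (SE 0.50, adjusted p = 0.769).

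**Figure D3:**
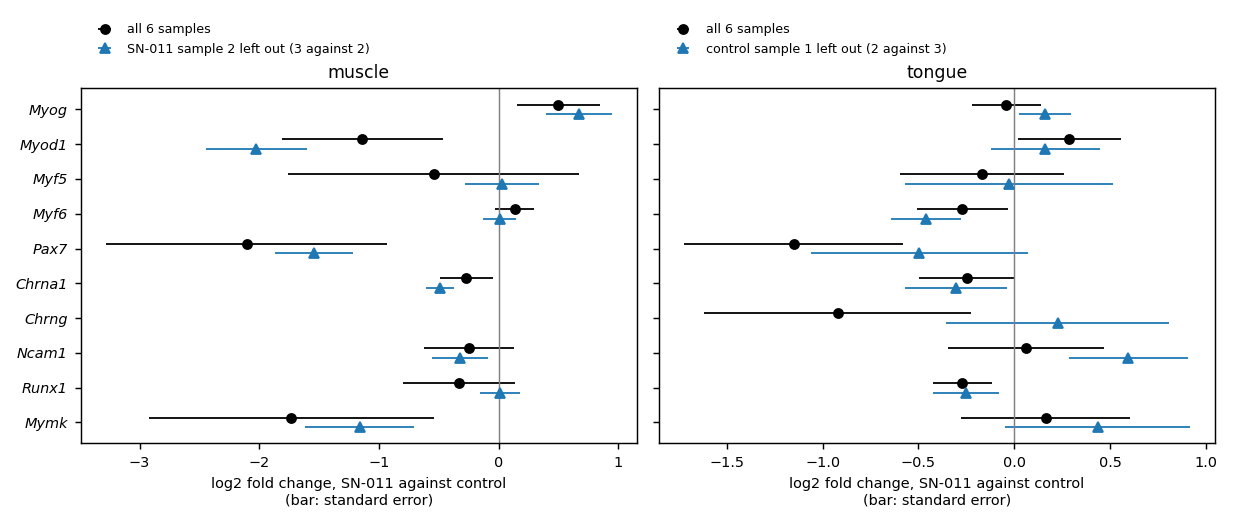
Log2 fold change of SN-011 against control with its standard error for each gene in muscle and tongue, in all 6 samples (black) and with 1 library left out (blue). In muscle the standard error of *Pax7* goes from 1.18 to 0.32 without SN-011 sample 2, and in tongue *Chrng* moves from −0.92 to 0.23 without control sample 1; *Chrng* was not tested in muscle.

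*Runx1* and *Ncam1* were the 2 genes also expressed in heart and stomach. *Runx1* acts in blood cells and other tissues besides denervated muscle. In heart it was at 23.3, 19.4 and 20.9 CPM in controls and 9.77, 10.8 and 16.7 CPM in SN-011 samples. All SN-011 samples lay below all controls, with 13.9% of all heart genes lower in that way and 13.2% higher. The log2 fold change was −0.75 (SE 0.21, unadjusted p = 0.00531, adjusted p = 0.0978), where 0.848% of 16151 genes passed. DESeq2 gave an adjusted p of 0.0211, edgeR's exact test 0.0438 and the fit without a filter on low counts 0.00434. These fits called 1308 of 16151, 918 of 16151 and 1888 of 30288 genes. The adjusted p of *Runx1* was 0.172 without control sample 1 and 0.478 in the joint fit. The other members, near 0 in heart, were not tested apart from *Ncam1*. *Ncam1* in heart was at 13.7 ± 0.831 and 12.7 ± 1.80 CPM (log2 fold change −0.09, SE 0.16).

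Leukocyte markers in heart summed to 1129 to 1980 CPM in controls and 1169 to 1476 CPM after SN-011, and fibroblast markers to 1939 to 2792 and 1330 to 1493 CPM. The part of either in the *Runx1* values was not tested.

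In tongue *Runx1* was at 16.6, 17.2 and 15.1 CPM in controls and 14.7, 12.1 and 13.7 CPM after SN-011. It was the 1 member of the tongue with no overlap between groups, where 8.3% of all genes were lower in this way and 9.41% higher (log2 fold change −0.27, SE 0.15, adjusted p = 0.488). Stomach gland markers summed to 43.9, 1518 and 1492 CPM in the tongue controls and to 8.12 to 19.3 CPM in the SN-011 samples, while *Runx1* on the 24-sample scale was 35.2 to 75.4 CPM in control stomach and 13.0 to 14.8 CPM in control tongue. Control sample 1, with 43.9 CPM of those markers, had 16.6 CPM of *Runx1*, and it was also the sample with female *Xist* counts. The part of the stomach gland content in the *Runx1* values was not tested. The SN-011 effect on *Runx1* in muscle minus that in heart was 0.39 (SE 0.48), and in tongue minus heart 0.50 (SE 0.48).

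**Figure D4:**
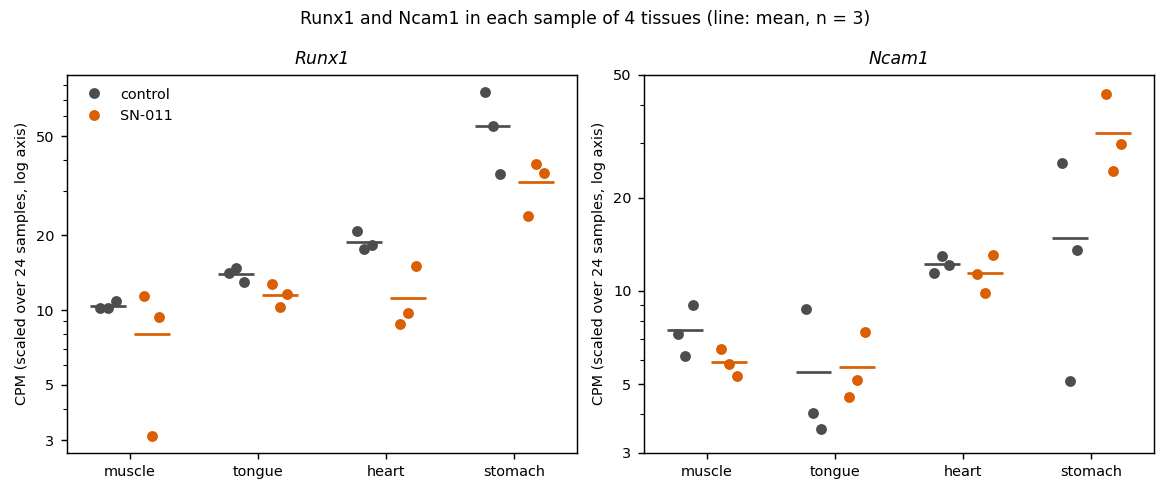
*Runx1* and *Ncam1* in each sample of muscle, tongue, heart and stomach, in CPM scaled over 24 samples on a log axis, for control (grey) and SN-011 (orange), with lines for means of 3. The SN-011 samples of tongue and heart lie below the controls for *Runx1*, and muscle SN-011 sample 2 is the lowest *Runx1* point, at 3.13 CPM.

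The 10 genes were next placed among others of their pathways. None of 4 lists had a gene past an adjusted p of 0.05 in muscle or tongue. In the satellite cell list, 12 of 18 tested genes were negative in muscle and 14 of 17 in tongue, with medians of −0.36 and −0.22. At an unadjusted p under 0.05, 5.8% of all muscle genes were lower and 8.96% higher; in this list *Spry1*, a feedback inhibitor of growth factor signalling, was the 1 lower gene, at 24.4 ± 2.64 and 13.4 ± 5.76 CPM. The 1 higher gene was *Sdc4*, a surface proteoglycan of satellite and many other cells. It was at 51.6, 23.0 and 31.6 CPM in controls and 140, 218 and 130 CPM in SN-011 muscle (log2 fold change 2.21, SE 0.36, adjusted p = 0.0951), and all SN-011 samples were above all controls. In tongue it was at 171, 234 and 278 CPM in controls and 205, 175 and 190 CPM after SN-011. *Sdc4* was the 1 gene of the 4 lists whose SN-011 effect differed between muscle and tongue (2.35, SE 0.34, adjusted p = 0.0252), and no gene passed in that comparison with the replicate block across tissues. *Pax3*, the close relative of *Pax7*, was at 1.29 ± 0.290 and 0.241 ± 0.212 CPM (−2.35, SE 1.12, adjusted p = 0.397).

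Of the differentiation and fusion list, 19 genes were tested in muscle and 20 in tongue, with medians of −0.00383 and −0.0324. *Mef2c*, a partner of the myogenic factors, was at 388, 424 and 430 CPM in control muscle and 187, 246 and 218 CPM after SN-011. Its groups were well apart, with a log2 fold change of −0.93 (SE 0.14, adjusted p = 0.0855). Without SN-011 sample 2 it was −1.03 (adjusted p = 0.0196), where 7.4% of all genes passed. *Tnnt2*, the cardiac and embryonic troponin T, was at 6.08 ± 2.24 and 12.3 ± 1.73 CPM in muscle (1.02, SE 0.33) and 28.0 ± 4.31 and 46.4 ± 3.18 CPM in tongue (0.73, SE 0.15). In tongue *Actc1* (−0.69, SE 0.19) and *Mef2a* (−0.24, SE 0.15) were the others among the 3 genes with the smallest p.

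The junction list gave 12 of 16 negative genes in muscle and 12 of 17 in tongue. *Musk*, the kinase that organises the postsynaptic membrane, was at 5.29, 3.73 and 3.12 CPM in control muscle and 12.2, 10.2 and 11.1 CPM after SN-011 (log2 fold change 1.47, SE 0.31, adjusted p = 0.141). *Agrn*, which encodes agrin, a ligand of that pathway, lay the other way at 43.7 ± 4.61 and 27.0 ± 5.43 CPM (−0.69, SE 0.19, adjusted p = 0.211). So did the receptor subunit gene *Chrnb1* at 37.0 ± 2.30 and 28.9 ± 1.32 CPM (−0.35, SE 0.12). None of these 3, named for their small p, overlapped between groups, where 19.9% of all muscle genes were lower in that way and 14.5% higher. The adult subunit gene *Chrne* was at 16.3 ± 4.82 and 15.9 ± 9.13 CPM in muscle, and the delta subunit gene *Chrnd* did not pass (−0.36, adjusted p = 0.900). In tongue *Ache*, which encodes the enzyme that breaks down acetylcholine, was at 39.7 ± 3.92 and 26.0 ± 4.58 CPM (−0.60, SE 0.17), *Prkg1* at 2.93 ± 1.42 and 0.434 ± 0.108 CPM (−2.73, SE 0.54) and *Lrp4*, the agrin receptor, at 58.1 ± 10.2 and 77.9 ± 7.57 CPM (0.43, SE 0.16). Their adjusted p was 0.263 to 0.373.

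The denervation response list was the one with a positive median in muscle, 0.86. Of its 16 tested genes 6 were higher at an unadjusted p under 0.05 and 0 lower, beside 8.96% and 5.8% of all muscle genes. The list was chosen with earlier results of these data known, so these counts do not test an enrichment. The 6 were *Musk*, *Fbxo32*, *Hdac4*, *Gadd45a*, *Trim63* and *Cdkn1a*, of which the last 3 are named after their values were seen. None was among the 10 genes. The members of this list tested in muscle, *Myog*, *Chrna1*, *Ncam1* and *Runx1*, had log2 fold changes of 0.50, −0.27, −0.24 and −0.33. Whether the higher values bear on a loss of nerve was not tested. *Hdac4*, which links denervation to *Myog*, was at 42.7, 35.1 and 39.6 CPM in controls and 63.5, 120 and 66.7 CPM after SN-011 (log2 fold change 1.10, SE 0.27, adjusted p = 0.187). *Fbxo32* and *Trim63* encode the muscle ubiquitin ligases atrogin-1 and MuRF1. *Fbxo32* was at 1334, 692 and 726 CPM in control muscle and 2557, 1983 and 2219 CPM after SN-011 (1.30, SE 0.28, adjusted p = 0.146). *Trim63* was at 2314, 440 and 417 CPM and then 4951, 4790 and 4300 CPM (2.15, SE 0.70, adjusted p = 0.258), so control sample 1 stood apart. Both passed without that control, the one with female *Xist* counts (adjusted p = 0.0107 for *Trim63* and 0.0430 for *Fbxo32*). In that fit 68 of 14570 genes passed. Without SN-011 sample 2, *Musk*, *Hdac4* and *Fbxo32* passed and no gene of the list passed as lower, where 7.4% of all genes passed.

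In tongue the median of this list was 0.06, with 2 genes higher and 1 lower at an unadjusted p under 0.05, beside 5.17% and 7.33% of all genes. *Trim63* was at 73.6 ± 36.3 and 222 ± 43.0 CPM (1.60, SE 0.36, adjusted p = 0.268) and *Fbxo32* at 153 ± 57.9 and 311 ± 33.4 CPM (1.02, SE 0.29). *Gadd45a* was at 36.0 ± 3.70 and 22.9 ± 4.42 CPM, a direction opposite to its value in muscle (−0.65, SE 0.18, against 1.21, SE 0.31). The difference between the tissues was 1.76 (SE 0.31, adjusted p = 0.0600). Without the tongue control sample 1, 12.5% of all genes passed; of this list 3 were higher and 1 lower, and none of the 10 members passed.

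In heart *Trim63* rose from 123 ± 29.5 to 301 ± 45.6 CPM (log2 fold change 1.31, SE 0.20, adjusted p = 0.0281), the only gene of the 4 lists to pass there. Its adjusted p was 0.169 without SN-011 sample 2 and 0.0524 without control sample 1. In the fit without control sample 1, 183 of 16606 genes passed. Among them was another gene of the list, *Cdkn1a*, which encodes a cell cycle inhibitor (1.23, SE 0.15, adjusted p = 0.0271). *Cdkn1a* is named after its values were seen. The list had 11 genes tested in heart, 4 higher and 1 (*Runx1*) lower at an unadjusted p under 0.05, beside 10.8% and 11.6% of all heart genes. The satellite list was represented by *Hey1* (1.07, SE 0.24), *Cd34* (−0.38, SE 0.13) and *Spry1* (−0.44, SE 0.20), the differentiation list by *Igf1* (−0.93, SE 0.19), *Cdkn1c* (0.65, SE 0.18) and *Tnnt2* (0.54, SE 0.19), and the junction list by *Colq* (−0.76, SE 0.25), *Dok7* (0.68, SE 0.25) and *Utrn* (−0.29, SE 0.11). Of these, *Hey1*, a Notch target, was also higher in tongue at 3.99 ± 1.01 and 9.35 ± 2.52 CPM (1.23, SE 0.30, adjusted p = 0.271).

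**Figure D5:**
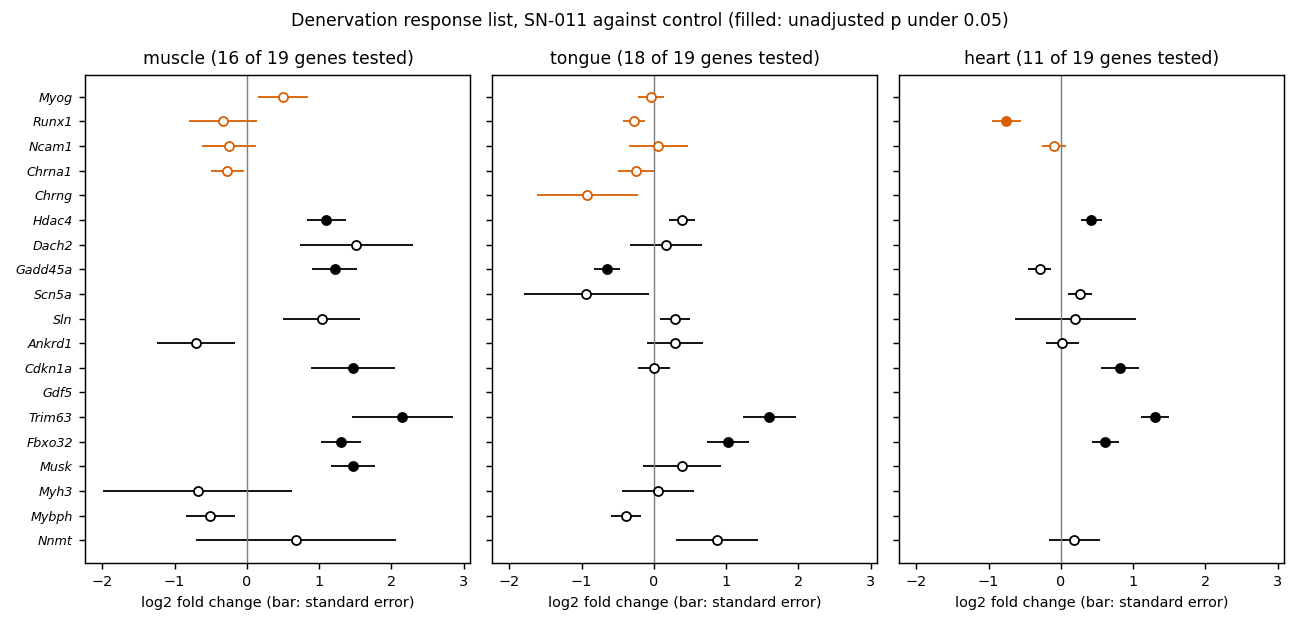
Log2 fold change of SN-011 against control with its standard error for the denervation response list in muscle, tongue and heart; orange marks members, filled points have an unadjusted p under 0.05. In muscle 6 of 16 tested genes are filled and all lie to the right of 0, while the 4 members tested lie between −0.33 and 0.50. The list was chosen with earlier results of these data known.

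Across all 24 samples, the genes most like each member were found by Pearson's r of log2 CPM among 19674 genes. The points share tissues and libraries, so r describes mainly which tissues express a gene. *Myf6* was closest to *Tnnt3* (r = 0.99) and *Atp2a1* (0.99), genes of fast fibres, and then *Cacng1* (0.99). *Chrna1* was closest to *Myhas* (0.98), *Nctc1* (0.98) and *2310065F04Rik* (0.98), and *Myog* to *Mettl21e* (0.98), *Nctc1* (0.98) and *Arpp21* (0.97). *Myod1* was closest to *Cacng1* (0.97), *2310065F04Rik* (0.96) and *Myf6* (0.96). *Mymk* and *Chrng* both had *Pax3* and *4930544D05Rik* among their 3 closest genes, with r of 0.93 to 0.96; the third was *Chrng* for *Mymk* and *Chrnd* for *Chrng*. *Pax7* was closest to *Fzd7* (0.92), *Agbl1* (0.91) and *Lhb* (0.91), and *Myf5* to *Ptprq* (0.96), *Gm29521* (0.96) and *Myh3* (0.95). *Runx1* was closest to *Gmds* (0.97), *Lasp1* (0.96) and *Akr1c13* (0.96), and *Ncam1* to *Sparcl1* (0.96), *Tmem252* (0.89) and *Itga1* (0.89).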

How the data were processed

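Poly(A) RNA of muscle, tongue, heart and stomach was sequenced in 2 × 150 bp runs per the labels. The authors deposited raw read counts per gene for each sample, without normalization. The submitters' processing notes name HISAT2, HTSeq and mm10, whereas the study's methods name featureCounts as the counter; the annotation release is not given in the sources used here. Symbols and positions were taken from GENCODE M21 (54495 of 54532 identifiers matched).

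Separate fits for every tissue used edgeR 4.0.16 under R 4.3.3 with its quasi-likelihood test, TMM scaling and a prior count of 0.125. Genes were kept by filterByExpr (at least 10 counts, 15 in total), and p was adjusted over all genes tested by Benjamini-Hochberg, with a threshold of 0.05. Muscle, tongue and heart were fitted jointly (18 samples) for differences between tissues. The labels give no mouse for a sample. Deviations from group means correlated between same-numbered controls at 0.44, 0.46 and 0.18 for muscle with tongue, 0.55, 0.57 and 0.24 for muscle with heart, and 0.51, 0.46 and 0.0943 for tongue with heart; for SN-011 samples r was −0.00821 to 0.145. Control sample 1 was the one with female *Xist* counts in every tissue. Stomach gland markers summed to 30.6, 43.9 and 11.4 CPM in control sample 1 of muscle, tongue and heart. In control sample 2 they summed to 427, 1518 and 1075 CPM. The part of these in r was not tested. The replicate block across tissues paired all same-numbered samples of muscle, tongue and heart, SN-011 samples as well as controls. Single values were compared by exact permutation (two-sided, 20 relabellings). The fits were checked on simulated data. CPM is given on a within-tissue scale or, between tissues, a 24-sample scale, divided by exonic kb for comparisons between genes. Python 3.11.15, pandas 2.3.3, scipy 1.17.1 and matplotlib 3.10.9 were used.

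*Ncam1* and *Runx1* overlap antisense genes over 4.81% and 0.881% of their exonic bases; whether the counting used strand is not given in the sources used here. All 10 members are named. Of each of 4 lists (satellite cell, differentiation and fusion, junction, denervation response), genes past the threshold or otherwise the 3 with the smallest p are named for each tissue (1 of these is not reported here), and for each member with a mean of at least 1 CPM in any group the 3 genes most like it over 24 samples (log2 CPM, prior count 2). Members, pathway lists and marker lists were chosen with earlier results of these data known. Alternatives were DESeq2 1.42.0 size factors or test, library size alone, no filter, edgeR's exact test, the joint fit, the replicate number as a block, each sample left out, and libraries that stand apart left out.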

Additional observations from a re-analysis of the deposited data

Results flagged for a closer look

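Stomach samples were in none of the comparisons, and 5 of the 10 genes had more than 3 counts over the SN-011 stomach samples with a mean above that of the controls. *Myf6* had a mean of 1.02 CPM after SN-011 and 0.108 CPM in controls, with 33, 5 and 13 counts in the SN-011 samples and 4, 0 and 0 in the controls. *Myod1* had means of 0.398 and 0.0810 CPM, *Pax7* 0.319 and 0.0423 CPM, and *Myog* 0.219 and 0 CPM. SN-011 samples 1 and 3 held all the *Myod1*, *Pax7* and *Myog* counts of their group. Skeletal muscle markers summed to 353 to 444 CPM in the SN-011 stomach samples and to 99.0, 114 and 606 CPM in the controls; their part in these values was not tested. *Ncam1* had a mean of 40.0 CPM after SN-011 and 17.8 CPM in controls, and the groups overlapped on the CPM scale (exact two-sided permutation p = 0.2, where 0.1 is the smallest possible). Groups of 3 are too small for a test of single outlying samples, and no member passed a test of a difference in the SN-011 effect between tissues.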

How the results depend on the processing

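Of 942 values of single genes under alternatives, 856 were labelled the same. For a fold change this means that direction and side of the threshold were kept. The 942 also hold mean levels of groups with library size alone, which have neither. A level was labelled the same if it shifted by less than the SD of its group, and 22 levels moved further. Of the fold changes 26 changed sign, 20 came to pass the threshold and 18 no longer passed. The number of genes called at an adjusted p of 0.05 moved far more. In muscle (2 genes) it was 1 with DESeq2 size factors, 1 with library size alone, 110 without a filter, 797 by DESeq2, 479 by the exact test, 977 in the joint fit and 4407 without the libraries that stand apart, and 0 to 1103 with 1 sample left out. In tongue (0 genes) it was 18 without a filter, 396 by DESeq2, 253 by the exact test, 2 in the joint fit and 2135 without the library that stands apart, and 0 to 2135 with 1 sample left out. In heart (137 genes) it was 249 with library size alone, 1888 without a filter, 1308 by DESeq2, 918 by the exact test and 3 in the joint fit, and 1 to 787 with 1 sample left out. For the SN-011 effect in muscle minus tongue (7 genes) it was 18 with DESeq2 size factors, 29 with library size alone, 20 without a filter, 394 by DESeq2 and 0 to 140 with 1 sample left out; for muscle minus heart (1 gene) 4 with DESeq2 size factors, 4 without a filter, 165 by DESeq2 and 0 to 44; and for tongue minus heart (0 genes) 28 by DESeq2 and 0 to 15. The cause was not tested. No member was called in muscle or tongue by any of these fits other than those that left out muscle SN-011 sample 2.

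Within a tissue the shared replicate numbers do not pair control with SN-011 samples, which correlated at −0.33 to 0.22 in their deviations from group means. With the replicate number as a block, 0 genes were called in muscle, 0 in tongue and 232 in heart, and with same-numbered samples of different tissues as a block 0 for muscle minus tongue. Of the members' calls, the block across tissues changed only that of *Myod1* in tongue against muscle controls.

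Several member values changed sign, and no such value passed the threshold. With library size alone *Myf6* in muscle was −0.11, *Myog* in tongue 0.0277, and in tongue against muscle controls *Ncam1* 0.36 and *Mymk* 0.40. Without the libraries that stand apart, an alternative chosen after seeing the data, *Runx1* in muscle was 0.00647, and in tongue *Myog* was 0.16 and *Chrng* 0.23. With 1 sample left out in turn, the muscle values ran from −1.09 to 0.0285 for *Myf5* and −0.65 to 0.0143 for *Runx1*, both above 0 without SN-011 sample 2. In tongue they ran from −0.14 to 0.16 for *Myog*, −0.49 to 0.0234 for *Myf5*, −0.43 to 0.0175 for *Chrna1*, −1.32 to 0.23 for *Chrng*, −0.18 to 0.60 for *Ncam1* and −0.0993 to 0.47 for *Mymk*. In heart *Ncam1* ran from −0.22 to 0.00631. The muscle minus tongue difference ran from −0.95 to 0.19 for *Myf5*, −0.41 to 0.0394 for *Chrna1* and −0.46 to 0.27 for *Runx1*, the tongue minus heart difference of *Ncam1* from −0.0564 to 0.69, and *Chrng* in tongue against muscle from −0.46 to 1.29. Depth limited *Chrng* in muscle and all members but *Ncam1* and *Runx1* in heart, where a change was not detectable.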
